A study of Mus musculus with 38 samples.

Results

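The ErbB and FGF receptors described here are 7 receptor tyrosine kinases, Egfr, Erbb2, Erbb3, Erbb4, Fgfr1, Fgfr2 and Fgfr3. They were chosen by gene symbol, were each measured by 1 probe set, and are 7 of the 15644 genes on the arrays. The data are 38 one-colour Affymetrix mouse arrays in 12 groups, made by translating ribosome affinity purification, in which ribosomes of 1 cell type carry a tag and are pulled from whole tissue together with the RNA bound to them. In adult cortex, bound RNA came from neurons (Snap25 line), astrocytes (Aldh1L1), mature oligodendrocytes (Cnp1), oligodendrocyte progenitors (Pdgfra) and oligodendroglia (Olig2, called cortical Olig2 cells below), with 3 arrays each, beside 5 arrays of cortex total RNA. In gliomas of 3 models, labelled Pdgf, Pdgf Cre and Recruited, bound RNA came from Olig2 cells and total RNA from the tumour, with 3 arrays of each kind in each model. All mice had a mixed C57BL/6J, FVB and Swiss-Webster background, cortex mice were wild type apart from the reporter lines, and each cell type of the cortex was sampled from pooled animals (2 or more mice a pool). For the tumours, the alleles, the inducing agents, the times and the ages are not given in the sources used here, nor whether animals were pooled. Which cells are marked rests on the driver gene of each line, so a bound sample holds RNA of every cell in which that driver is active.

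Receptor tyrosine kinases span the cell membrane, pair up when a ligand binds outside the cell, and phosphorylate adaptors that switch on the ERK and AKT pathways. The ErbB receptors bind EGF-like ligands and neuregulins. Erbb2 binds no ligand of its own and Erbb3 has little kinase activity, so both work mainly as partners. FGF receptors bind fibroblast growth factors together with heparan sulphate. In the brain, Egfr is known for its amplification in human glioblastoma, Fgfr3 as an astrocyte gene, and Fgfr1 and Fgfr2 for roles in oligodendrocyte maturation and the growth of the myelin sheath.

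Levels are log2 signals after quantile normalization, which gives all arrays the same distribution. A level under log2 of 50, or 5.64, is called dim, because signals this low carry little information on abundance. All 4 ErbB receptors were dim on all 38 arrays. Of the 266 receptor values, 29 lay above the limit, and these belonged to Fgfr2 (20 arrays in 6 groups), Fgfr1 (6 arrays in 2 groups) and Fgfr3 (3 arrays in 1 group). Fgfr2 was highest in mature oligodendrocytes, Fgfr1 and Fgfr3 in astrocytes. In tumours, Fgfr2 lay above the limit in bound RNA of the Recruited model and was near the floor of the scale in the other two models. Levels of different genes are not ranked against each other, since each probe set has its own response.

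**Figure D1:**
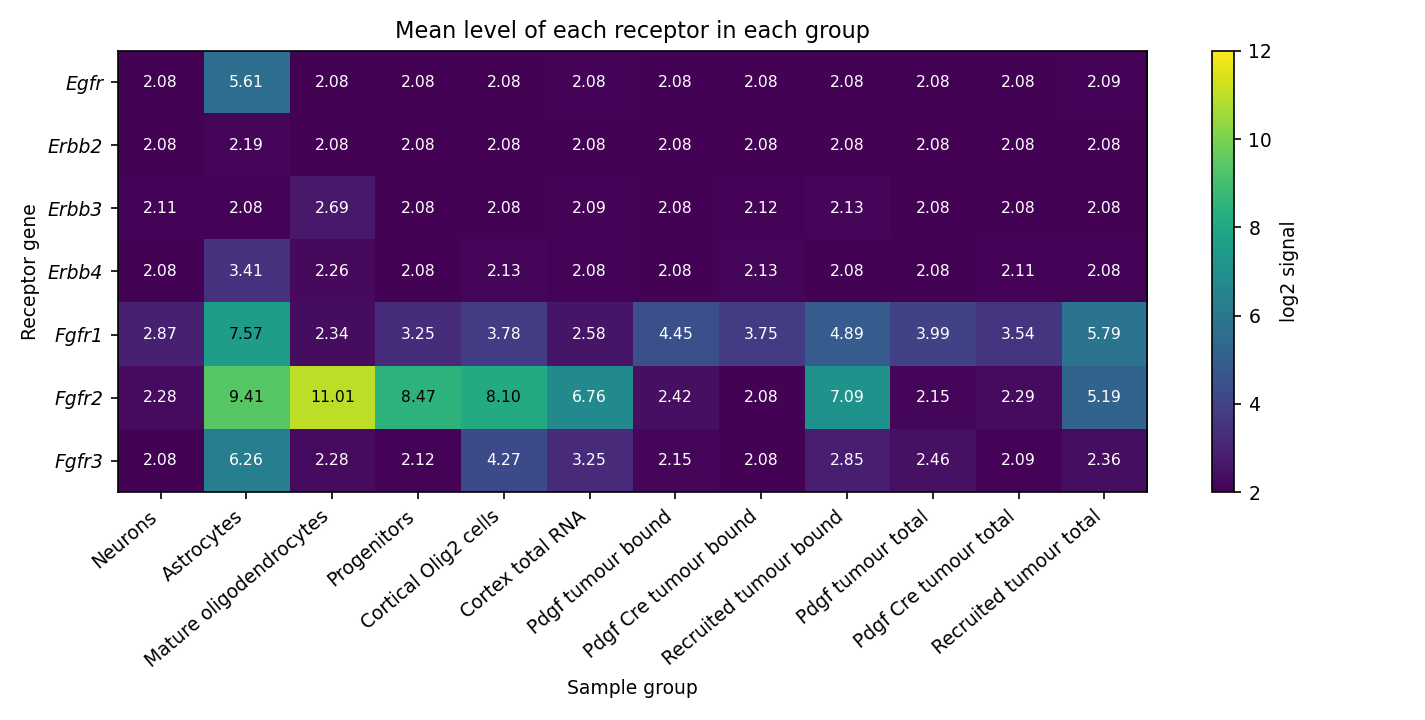
Mean log2 signal of each receptor (rows) in each of the 12 groups (columns), with the value printed in each cell and shown by colour from 2 to 12. Fgfr2 reaches 11.01 in mature oligodendrocytes, while Erbb2 stays at or below 2.19 in every group.

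The bases just before the start of transcription are shown for 3 receptors. Fgfr2 was highest in mature oligodendrocytes, with astrocytes next at a mean of 9.41. Fgfr3 and Egfr were both highest in astrocytes, where Egfr was dim. The windows are given as a description, and no contrast between cell types is drawn from them. RefSeq (GRCm38.p6) gave such a 250-base window for Egfr, Erbb2, Erbb4, Fgfr2 and Fgfr3. Capitals mark CG pairs, the sites of DNA methylation and a usual feature of broadly used promoters.
Fgfr2 (chr7:130266809-130267058, minus strand): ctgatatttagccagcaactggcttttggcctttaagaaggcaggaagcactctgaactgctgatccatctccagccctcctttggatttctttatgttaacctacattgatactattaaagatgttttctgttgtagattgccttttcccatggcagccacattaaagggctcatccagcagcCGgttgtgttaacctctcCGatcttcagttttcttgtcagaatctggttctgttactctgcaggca
Fgfr3 (chr5:33721474-33721723, plus strand): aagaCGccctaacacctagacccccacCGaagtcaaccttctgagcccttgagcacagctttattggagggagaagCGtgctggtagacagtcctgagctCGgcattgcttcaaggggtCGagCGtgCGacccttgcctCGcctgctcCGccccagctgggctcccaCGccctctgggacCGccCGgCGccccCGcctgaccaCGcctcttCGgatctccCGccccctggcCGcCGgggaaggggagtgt
Egfr (chr11:16751953-16752202, plus strand): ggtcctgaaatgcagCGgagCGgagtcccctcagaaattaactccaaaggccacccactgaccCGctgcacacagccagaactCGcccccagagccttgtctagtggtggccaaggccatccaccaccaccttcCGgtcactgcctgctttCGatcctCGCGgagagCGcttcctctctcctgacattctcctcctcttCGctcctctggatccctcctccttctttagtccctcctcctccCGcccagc
Fgfr2 has 2 CG pairs in its window, and 18.8% of 32851 promoter windows of the same length have fewer. Fgfr3 has 19 in the window shown and 24 in the window of a second start, and 80.3% and 88% of windows have fewer. Egfr has 11, with 64.4% of windows below it, against a median of 6 over all windows. Erbb2 and Erbb4, also highest in astrocytes at dim levels, have 16 and 12, with 74.6% and 66.5% of windows below them. These counts describe the letters in the windows, and no methylation was measured.

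Label checks and array quality come first, since they bear on every level. The gene of each reporter line was above the limit in its own population, with Snap25 at 15.46 in neurons, Cnp at 14.23 in mature oligodendrocytes, Aldh1l1 at 11.45 in astrocytes, Pdgfra at 10.35 in progenitors and Olig2 at 12.47 in cortical Olig2 cells. Neuron RNA was present in the oligodendrocyte samples: the mean of 10 neuron markers had a median of 9.38 in mature oligodendrocytes and 8.72 in progenitors, against 11.06 in neurons. It was 7.63 in cortical Olig2 cells, against 5.13, 5.16 and 6.09 in Pdgf, Pdgf Cre and Recruited bound RNA. Astrocyte markers had a median of 9.25 in cortical Olig2 cells and 8.48 in cortex total RNA. Replicate 3 of Recruited total RNA stood apart, with neuron markers at 11.14 against 8.71 and 8.97 in the other arrays and progenitor markers at 7.26 against 10.78 and 10.27. Progenitor arrays had the largest gap between the 3′ and 5′ actin probe sets, a sign of RNA quality, at 6.51 ± 0.43 (SD, n = 3), against 4.53 ± 1.02 in cortex total RNA (n = 5). The lowest deposited value was shared by all arrays of a group and differed between groups, and many genes held 1 deposited value on all arrays of a group. This was so for 54 of the 84 sets of receptor values by group, which makes their SD and p-values too small. In bulk samples, fewer cells of a type and less RNA per cell cannot be told apart.

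Egfr, the receptor for EGF, TGF-alpha and HB-EGF, was highest in astrocytes, and near the floor in the other 11 groups. Its astrocyte arrays read 5.62, 5.59 and 5.61, just under the limit, and all other arrays read 2.08 or 2.09. As deposited, the 3 astrocyte values were identical at 5.06. Cortical Olig2 cells and the 18 tumour arrays were among these.

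Erbb4, a neuregulin receptor, read 2.59, 3.86 and 3.78 in astrocytes, and no other group mean exceeded 2.26. Erbb3, the kinase-poor neuregulin receptor, read 2.08, 2.53 and 3.45 in mature oligodendrocytes, and no other group mean exceeded 2.13. The arrays of both groups spread widely, and the lowest array overlapped those of the next group in the order. Erbb2, the ligandless partner, was highest in astrocytes at 2.19 ± 0.02 (SD, n = 3), a level near the floor. Since no ErbB receptor exceeded the limit on any array, none was tested, and these levels do not show that the receptors were absent from the cells.

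Fgfr2, a receptor for FGF1, FGF7 and FGF10 among others, was the receptor most often above the limit. Its mature oligodendrocyte arrays read 11.04, 10.94 and 11.05. Its astrocyte arrays read 9.52, 9.31 and 9.41, and its progenitor arrays 8.40, 8.63 and 8.36. All arrays of mature oligodendrocytes therefore lay above those of astrocytes, and all astrocyte arrays above those of progenitors. Cortical Olig2 cells read 7.97, 7.97 and 8.38, overlapping the progenitors, and the 5 cortex total arrays ran from 6.12 through a median of 6.90 to 6.98. Neurons were dim, at 2.28 on all 3 arrays. Recruited bound RNA read 6.46, 6.88 and 7.94 and overlapped cortex total RNA, and Recruited total RNA was dim at 5.15, 5.04 and 5.37. Pdgf bound RNA (2.36, 2.45 and 2.45), Pdgf Cre bound RNA (2.08 on all arrays) and the total RNA of both models (means of 2.15 and 2.29) were at or near the floor.

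**Figure D2:**
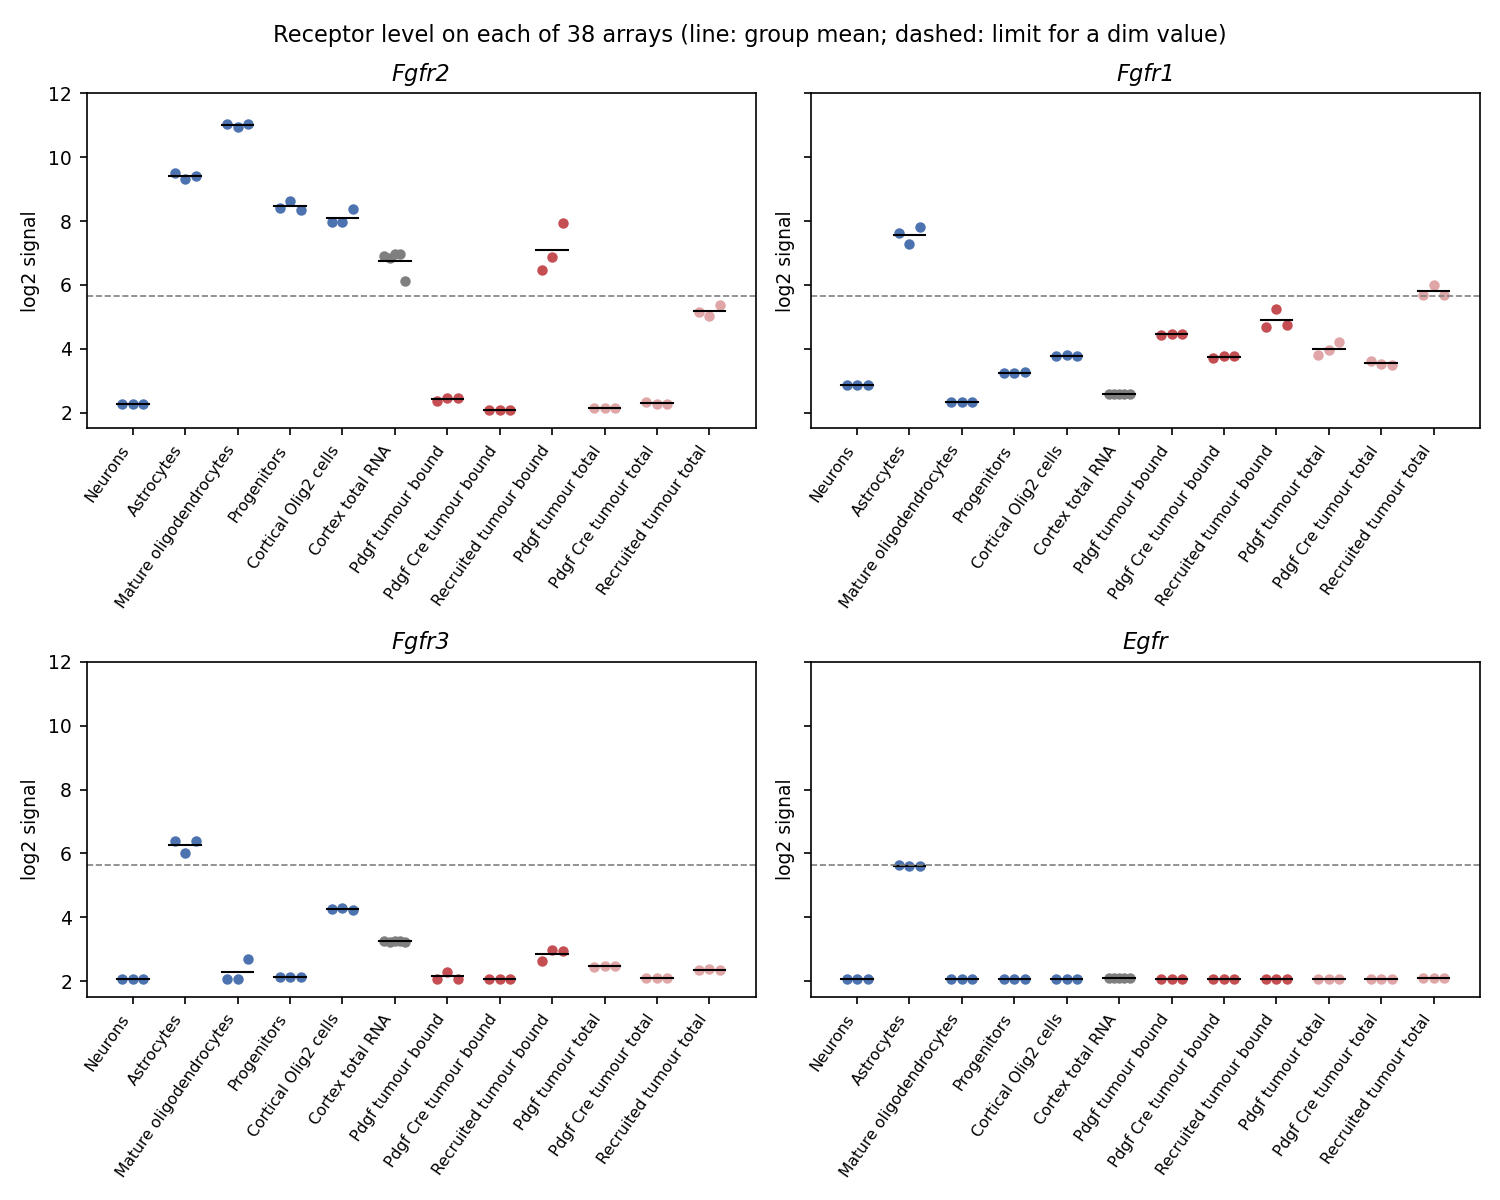
Log2 signal of Fgfr2, Fgfr1, Fgfr3 and Egfr on each of the 38 arrays (points) by group, with group means as lines and the dim limit of 5.64 as a dashed line; blue is cortical bound RNA, grey cortex total RNA, dark red tumour bound RNA and light red tumour total RNA. Fgfr2 lies above the limit in 6 groups, Fgfr1 in 2, Fgfr3 in 1 and Egfr in none.

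Cortical populations were compared with cortex total RNA to ask in which bound RNA each receptor is enriched. Cell type and the kind of RNA, bound or total, cannot be told apart in these comparisons. Differences were tested with limma over 9799 genes, of which 3 were receptors (Fgfr1, Fgfr2 and Fgfr3). A gene passed if it changed 2-fold or more and its Benjamini-Hochberg adjusted p was below 0.05. Where 1 mean is dim, the limit stands in for each dim array of that group and the fold is given as a lower bound. No fold is given where both are dim, and such a pass is named as one without the words rose or fell. With many genes passing, each count of receptors is set beside the share of all tested genes that passed.

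In mature oligodendrocytes, Fgfr2 rose 19.0-fold over cortex total RNA, by 4.25 ± 0.20 on the log2 scale (SE, adjusted p = 9.8e-18). It was the 1 receptor of 3 that passed there, where 52.9% of all tested genes passed. In astrocytes all 3 passed upward, where 61% of genes passed. Fgfr3 was above the limit on the 3 astrocyte arrays alone, the fewest that the filter accepts. Its place in the test thus rests on its astrocyte level, and its astrocyte pass is no separate support. Fgfr2 rose 6.28-fold (2.65 ± 0.20, adjusted p = 4.19e-13), Fgfr1 at least 3.81-fold (4.99 ± 0.11, adjusted p = 1.8e-26) and Fgfr3 at least 1.54-fold (3.02 ± 0.10, adjusted p = 2.49e-21). In progenitors Fgfr2 rose 3.25-fold (1.70 ± 0.20, adjusted p = 9.55e-09) and Fgfr3 passed downward with both means dim, against 48.2% of genes. In cortical Olig2 cells Fgfr2 rose 2.53-fold (1.34 ± 0.20, adjusted p = 5.16e-07), and Fgfr1 and Fgfr3 passed upward with both means dim, against 56.1% of genes. With arrays scaled on their spike-in controls, the Fgfr2 value in cortical Olig2 cells was 0.83 (adjusted p = 0.112). In neurons Fgfr2 fell at least 2.17-fold (-4.48 ± 0.20, adjusted p = 6e-18) and Fgfr3 passed downward with both means dim, against 28.2% of genes.

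Fgfr1, a receptor for FGF2 and many other FGFs, was above the limit on all 3 astrocyte arrays, at 7.62, 7.28 and 7.82. The other cortical groups were all dim, from 2.34 in mature oligodendrocytes to 3.78 in cortical Olig2 cells. Fgfr3, a receptor for FGF1, FGF9 and FGF18 among others, read 6.39, 6.0 and 6.39 in astrocytes. As deposited, these were 5.92, 5.47 and 5.92, with 1 array under the limit. With dim values raised to the limit the Fgfr3 difference of astrocytes was 0.62 both from cortex total RNA and from progenitors, under 2-fold, and at a limit of log2 100 the gene was not tested. Cortical Olig2 cells followed at 4.27, cortex total RNA at 3.25 and Recruited bound RNA at 2.85, and all other means were at or below 2.46. All of these means were dim, and the 3 cortical Olig2 arrays held 1 deposited value, so their order is not read further.

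The stages of the oligodendrocyte lineage were compared directly. Fgfr2 was 5.84-fold lower in progenitors than in mature oligodendrocytes (-2.55 ± 0.22, adjusted p = 3.75e-11), the 1 receptor that passed, against 38.7% of genes. Fgfr1 was dim in both, at 3.25 ± 0.01 in progenitors and 2.34 ± 0.01 in mature oligodendrocytes (SD, n = 3), with a difference of 0.91 ± 0.12 (SE, adjusted p = 1.25e-07) that missed the 2-fold threshold. The mature oligodendrocyte markers, a list of 9 genes, had a median array mean of 13.68 in mature oligodendrocytes and 11.02 in progenitors. Their part in the Fgfr2 difference was not tested.

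Between astrocytes and progenitors, Fgfr1 and Fgfr3 passed, against 51.3% of genes. Fgfr3 was in the test only through its 3 astrocyte arrays, so its pass here is no separate support. Fgfr1 was at least 3.81-fold higher in astrocytes (4.32 ± 0.12, adjusted p = 2.16e-23) and Fgfr3 at least 1.54-fold higher (4.15 ± 0.12, adjusted p = 2.39e-23). For Fgfr2 the difference was 1.93-fold (0.95 ± 0.22, 95% interval 0.50 to 1.40, adjusted p = 0.000364), under the 2-fold threshold. It reached 1.03 on the deposited values, 1.54 with spike-in scaling, and 1.03 without progenitor replicate 2, and so passed in each of these 3 cases.

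**Figure D3:**
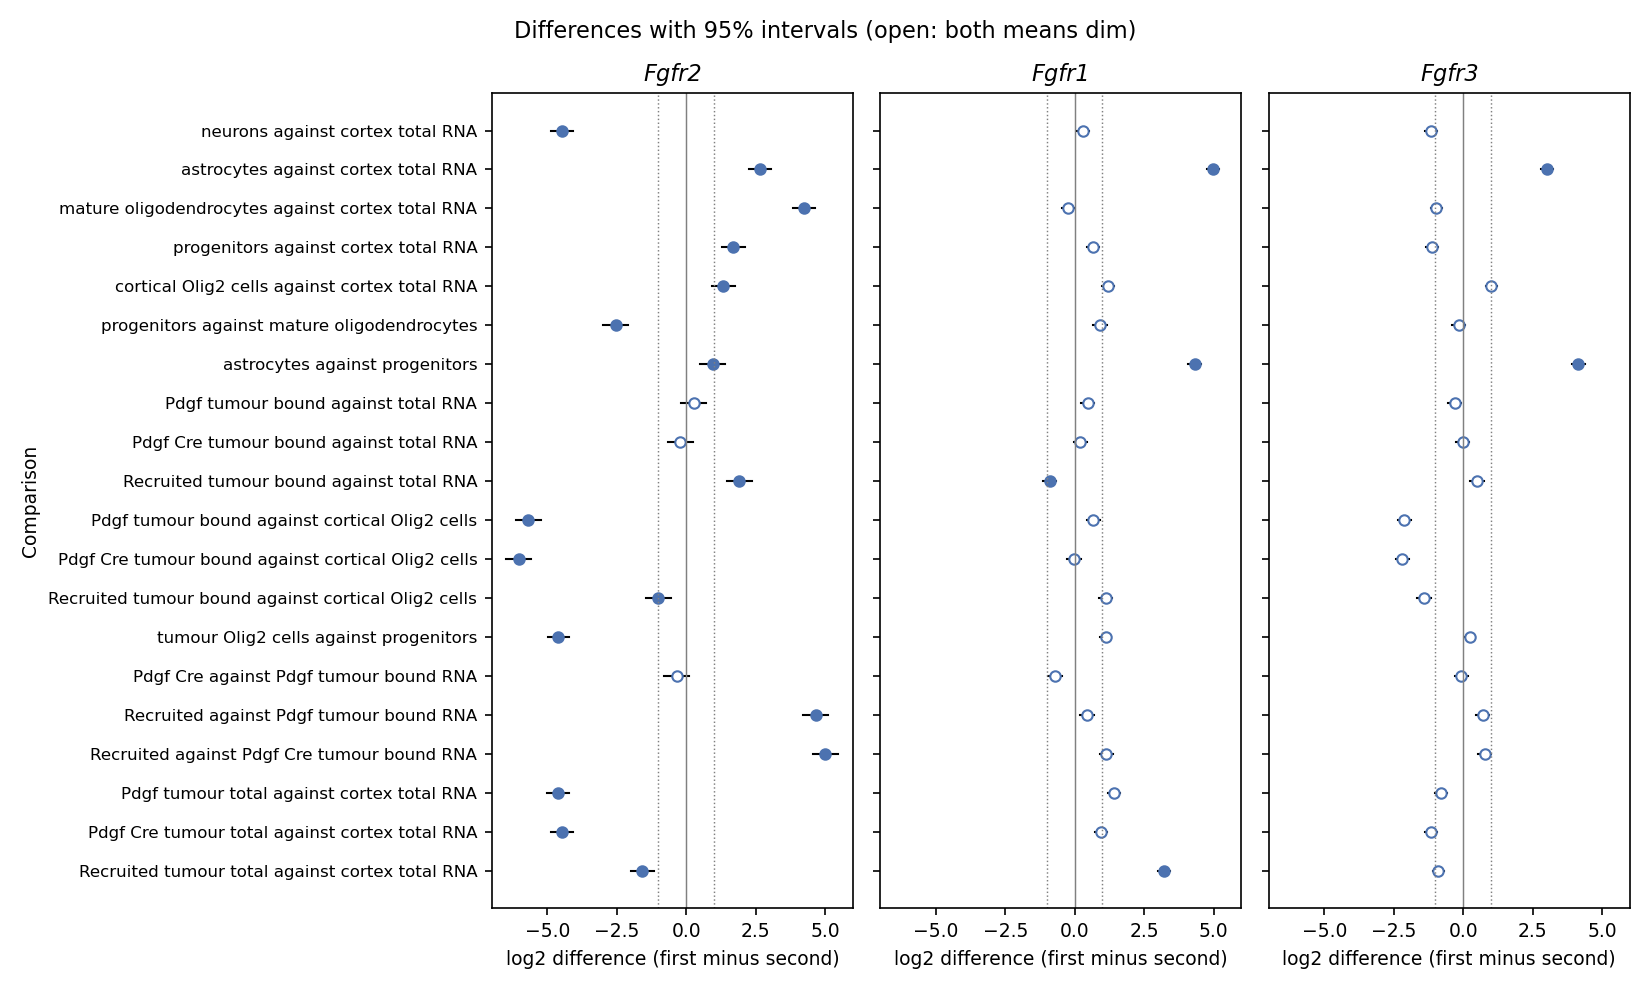
Log2 difference of Fgfr2, Fgfr1 and Fgfr3 (first group named minus second) in 20 comparisons, with 95% intervals as bars, open points where both means are dim, and dotted lines at a 2-fold change. Fgfr2 differences run from -6.03 to 5.02, and most points of Fgfr1 and Fgfr3 are open.

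Tumour Olig2 cells were compared with cortical Olig2 cells to ask how the receptors differ between Olig2 bound RNA of tumours and of cortex. The populations were not matched in cell make-up. Mature oligodendrocyte markers ranged from 12.90 to 13.05 in cortical Olig2 cells and from 6.66 to 6.87 in Pdgf cells. The part of cell make-up in the receptor differences was not tested. Fgfr2 fell at least 5.50-fold in the Pdgf model (-5.68 ± 0.22, adjusted p = 5.6e-19) and at least 5.50-fold in the Pdgf Cre model (-6.03 ± 0.22, adjusted p = 9.9e-20). In both, Fgfr3 also passed downward with both means dim. That made 2 of 3 receptors in each, against 32% of genes in the Pdgf and 36.1% in the Pdgf Cre comparison. In the Recruited model Fgfr2 fell 2.02-fold (-1.01 ± 0.22, adjusted p = 0.000357), with its highest array at 7.94 and the lowest cortical Olig2 array at 7.97. This call was not stable. With replicate numbers as a block the value was -0.97 (adjusted p = 0.000578), and it also dropped under 2-fold as deposited (-0.76) and without cortical Olig2 replicate 3 (-0.88), Recruited bound replicate 1 (-0.69) or replicate 2 (-0.91). Fgfr1 passed upward and Fgfr3 downward in this model with both means dim, which made 3 of 3 receptors against 27.5% of genes. These comparisons share the cortical Olig2 arrays. The labels place all cortex arrays in 1 dataset and all tumour arrays in another, so dataset and tissue cannot be told apart in any comparison of tumour with cortex.

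Against normal progenitors, the mean of the 3 models was at least 5.06-fold lower for Fgfr2 (-4.60 ± 0.18, adjusted p = 5.33e-19). The Recruited mean of 7.09 lay nearer the progenitor mean of 8.47 than those of the other two models, and this pair was not tested on its own. In the comparison of the mean, Fgfr1 passed upward with both means dim, against 36.9% of genes. The models differed among themselves. Fgfr2 was at least 2.73-fold higher in Recruited than in Pdgf cells (4.67 ± 0.22, adjusted p = 6.8e-17) and at least 2.73-fold higher than in Pdgf Cre cells (5.02 ± 0.22, adjusted p = 7.64e-18). Against Pdgf it was the 1 receptor that passed, where 25.8% of genes passed. Against Pdgf Cre 2 passed, the other being Fgfr1 with both means dim, where 34.5% of genes passed. Between Pdgf Cre and Pdgf cells no receptor passed in limma, with 1 of 3 at an unadjusted p under 0.05, where 16.6% of genes passed. That receptor was Fgfr1, at 3.75 ± 0.03 in Pdgf Cre and 4.45 ± 0.02 in Pdgf cells, both dim.

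The higher Fgfr2 of Recruited cells came with higher levels of mature oligodendrocyte and astrocyte markers than in Pdgf and Pdgf Cre cells. In Recruited replicates 1, 2 and 3 Fgfr2 read 6.46, 6.88 and 7.94. The 9 mature oligodendrocyte markers had array means of 10.83, 12.31 and 13.30 there. Their range was 6.66 to 6.87 in Pdgf and 6.83 to 8.75 in Pdgf Cre cells, against 12.90 to 13.05 in cortical Olig2 cells. The 9 astrocyte markers ranged from 9.97 to 10.55 in Recruited cells, from 5.97 to 6.04 in Pdgf cells, from 6.43 to 6.77 in Pdgf Cre cells and from 9.24 to 9.28 in cortical Olig2 cells. None of the 9 genes of either list was dim in Recruited cells. The 9 progenitor markers covered 9.64 to 10.40 in Recruited, 9.78 to 10.44 in Pdgf and 10.14 to 10.47 in Pdgf Cre cells. In Recruited replicates 1, 2 and 3 the astrocyte markers read 9.97, 10.55 and 10.05. The progenitor markers read 10.11, 10.40 and 9.64 there. The order of 3 arrays is not read as a link between any marker list and Fgfr2. The part of these marker levels in the Fgfr2 difference was not tested.

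**Figure D4:**
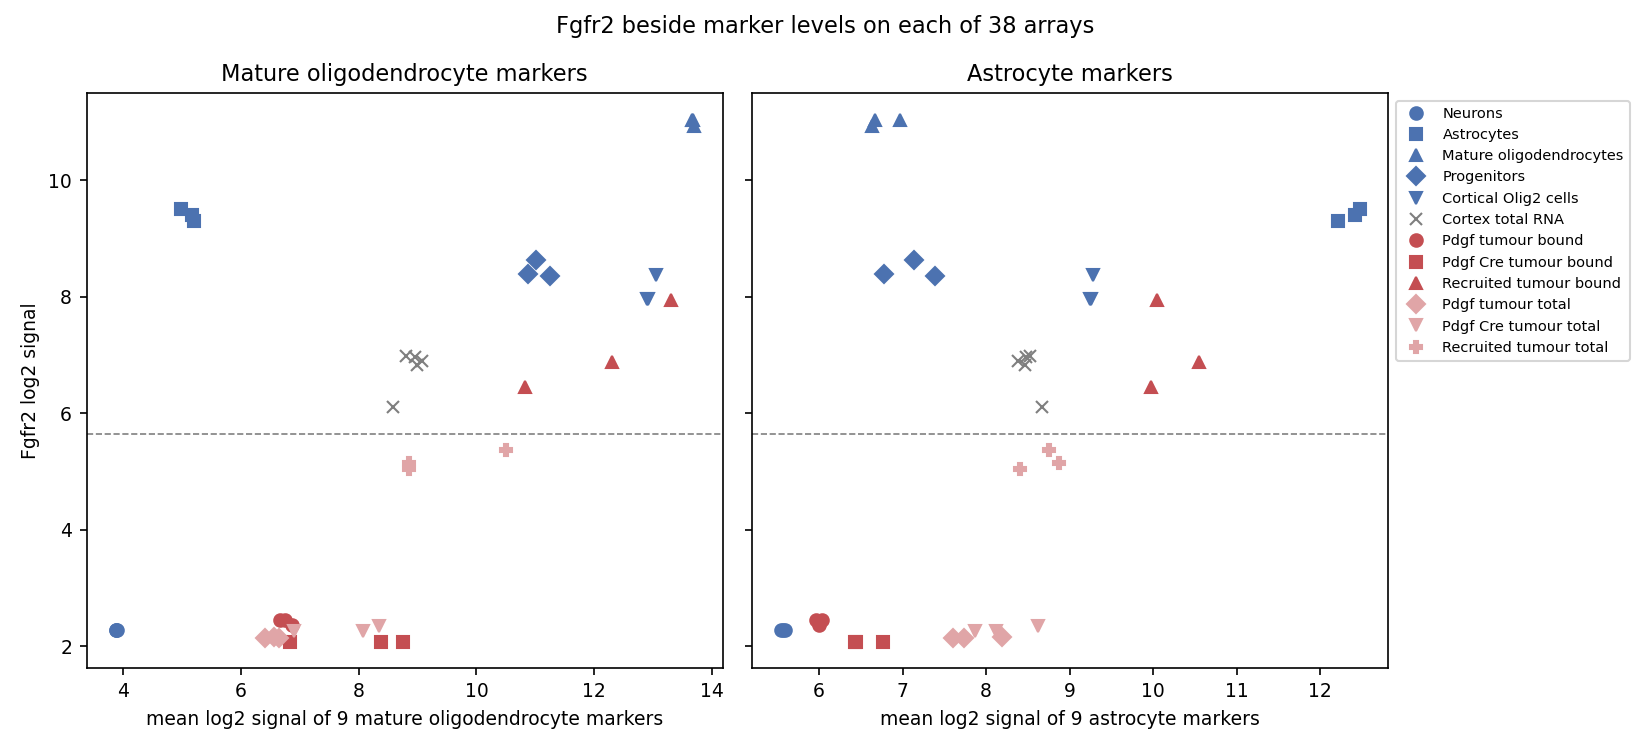
Log2 signal of Fgfr2 (vertical) against the mean log2 signal of 9 mature oligodendrocyte markers (left) and 9 astrocyte markers (right) on each of the 38 arrays, with the dim limit dashed. The Recruited bound arrays lie at marker means of 10.83 to 13.30 (left) and 9.97 to 10.55 (right), and the Pdgf bound arrays at 6.66 to 6.87 and 5.97 to 6.04.

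Bound RNA was set against total RNA of the same tumours to ask which receptor RNAs are enriched in Olig2 bound RNA. Here too, cell type and the kind of RNA cannot be told apart. In the Recruited model Fgfr2 was at least 2.73-fold higher in bound RNA (1.91 ± 0.22, adjusted p = 1.23e-08), the 1 receptor that passed, against 44.3% of genes. The direction rests on the scale: the difference was 0.88 on the deposited values, under 2-fold, and -1.69 with spike-in scaling. Without Recruited total replicate 3 it was 2.00. Fgfr1 went the other way, with total RNA at 5.68, 6.0 and 5.70 and bound RNA at 4.68, 5.25 and 4.76. Its difference of -0.90 ± 0.12 (adjusted p = 1.48e-07) missed the 2-fold threshold, and it was -1.88 on the deposited values and -4.45 with spike-in scaling. No receptor passed in the Pdgf model, where 32.2% of genes did, or in the Pdgf Cre model, where 38% did, by limma. At an unadjusted p under 0.05 there were 2 of 3 in Pdgf and 0 of 3 in Pdgf Cre. In both models all 3 receptors were dim on both sides. With spike-in scaling 2 passed in Pdgf and 1 in Pdgf Cre, and on the deposited values 1 passed in each, all downward. With that scaling 8594 of 10099 tested genes passed in Pdgf, against 3157 of 9799 in the main fit. The receptor counts are therefore not read as particular to the receptors. The turned signs were those of Fgfr1, at -1.15 and -2.75 in Pdgf and -1.21 and -1.66 in Pdgf Cre (as deposited and with spike-in scaling), and of Fgfr2 in Pdgf, at -1.72 with spike-in scaling.

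Tumour total RNA was compared with cortex total RNA. Fgfr2 fell at least 2.17-fold in Pdgf (-4.62 ± 0.20, adjusted p = 1.78e-18), in Pdgf Cre (-4.47 ± 0.20, adjusted p = 4.23e-18) and in Recruited tumours (-1.58 ± 0.20, adjusted p = 4.07e-08). On the deposited values the Recruited difference was -0.63, under 2-fold, and with spike-in scaling it was 1.07. Fgfr1 rose at least 1.11-fold in Recruited tumours (3.21 ± 0.11, adjusted p = 3.84e-21), and its 3 arrays were all just above the limit. With dim values raised to the limit this difference was 0.15 (adjusted p = 0.0549). Fgfr1 passed upward in Pdgf, and Fgfr3 downward in Pdgf Cre, with both means dim. So 2 of 3 receptors passed in each model, against 50.5% of genes in Pdgf, 47.9% in Pdgf Cre and 50.2% in Recruited. These comparisons share the cortex total arrays. Of the other cell types, microglia and macrophage markers (10 genes) had a median of 8.01 in Recruited total RNA, 9.03 in Pdgf and 8.74 in Pdgf Cre, against 5.07 in cortex. Pericyte and fibroblast markers (8 genes) had medians of 7.06, 6.31 and 6.08, against 4.46. The Recruited total arrays spread widely, from 6.45 to 9.86 for the microglia and macrophage list and from 6.79 to 9.48 for the pericyte and fibroblast list. The part of these markers in the Fgfr1 and Fgfr2 differences was not tested.

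The ratio of bound to total RNA in tumours was compared with the ratio of cortical Olig2 cells to cortex total RNA. Fgfr1 was the 1 receptor of 3 that passed, at -1.27 ± 0.13 (adjusted p = 8.51e-10), against 43.8% of genes. Its bound minus total difference was 0.47 in Pdgf, 0.21 in Pdgf Cre and -0.90 in Recruited tumours, and 1.20 in cortex. Of these groups only Recruited total RNA had a mean above the limit, and with dim values raised to the limit the difference was -0.05. The difference was -0.68 for Fgfr2 (adjusted p = 0.0123) and -0.96 for Fgfr3 (adjusted p = 8.76e-08), both under 2-fold.

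Ligands of the receptors were mostly dim. Of 9 measured ErbB ligands, Hbegf, the gene of HB-EGF, was the 1 tested. It read 9.55 ± 0.59 (SD, n = 3) in astrocytes, where Egfr was also highest, 3.90 ± 0.01 in cortex total RNA (n = 5), 6.16 ± 0.05 in cortical Olig2 cells and 2.34 ± 0.01 in mature oligodendrocytes. Hbegf rose at least 15.0-fold in astrocytes over cortex total RNA (5.65 ± 0.35, adjusted p = 7.9e-15). In tumour Olig2 cells Hbegf was 2.77-fold (Pdgf), 2.30-fold (Pdgf Cre) and 2.02-fold (Recruited) above cortical Olig2 cells, with adjusted p of 0.0025, 0.011 and 0.034.

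Of 17 measured FGF ligands, Fgf1 and Fgf9 were tested. Fgf1, which binds all FGF receptors, read 10.29 ± 0.10 in astrocytes, 9.59 ± 0.39 in mature oligodendrocytes and 7.65 ± 0.14 in cortical Olig2 cells. It fell at least 4.01-fold in Pdgf and in Pdgf Cre Olig2 cells against cortical Olig2 cells (-5.57 ± 0.39 in each), where every array was at the floor of 2.08. In Recruited cells Fgf1 read 7.49 ± 0.69, at least 3.60-fold above Pdgf cells (5.42 ± 0.39, adjusted p = 1.2e-12). Fgf1 and Fgfr2 were both near the floor in bound and total RNA of the Pdgf and Pdgf Cre models, whereas in neurons Fgfr2 was at 2.28 and Fgf1 at 4.65. Fgf9, known as a neuronal FGF, read 7.62 ± 0.03 in neurons and 7.70 ± 0.08 in cortex total RNA, and 2.63 ± 0.04 in astrocytes. Fgfrl1, an FGF receptor without a kinase domain, read 11.59 ± 0.37 in astrocytes, 4.49 in neurons and between 9.72 and 11.52 in the 6 tumour groups.

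Of 10 tested inhibitors of receptor signalling, 5 passed upward and 0 downward in astrocytes against cortex total RNA, fewer than the 61% of all tested genes that passed, and 4 of these had a mean above the limit. Their median difference was 0.99 against 0.01 over all tested genes. Lrig1, which promotes the breakdown of ErbB receptors, rose 8.08-fold there (3.02 ± 0.31, adjusted p = 4.9e-10). In Olig2 cells of Pdgf tumours against cortical Olig2 cells 6 passed upward and 1 downward, where 32% of all genes passed, with 3 of the 6 having a mean above the limit and a median of 1.24 against 0.06 over all genes. The 1 was Lrig1, which fell 2.50-fold there and 4.99-fold in Pdgf Cre cells but rose 3.16-fold in Recruited cells (1.66 ± 0.35, adjusted p = 2.2e-04). Spry1, a feedback inhibitor that FGF signalling switches on, rose 2.83-fold in Pdgf cells (1.5 ± 0.49, adjusted p = 0.011). Its highest cortical mean was in progenitors, at 12.42 ± 0.18, against 6.6 ± 0.19 in cortex total RNA.

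Of 8 tested targets of the ERK cascade, 5 passed upward and 1 downward in Pdgf, 6 and 1 in Pdgf Cre, and 2 and 2 in Recruited Olig2 cells against cortical Olig2 cells, where 32%, 36.1% and 27.5% of all genes passed. The medians were 1.5, 1.63 and 0.59, against 0.06, 0.03 and -0.0011 over all genes. Etv4, an ETS factor, read 7.28 ± 0.26 in Pdgf, 8.65 ± 0.22 in Pdgf Cre and 5.13 ± 1.13 in Recruited cells, against 5.42 ± 0.85 in cortical Olig2 cells. It rose at least 2.73-fold in Pdgf and at least 7.09-fold in Pdgf Cre cells. Its relative Etv1 was highest in mature oligodendrocytes, at 9.11 ± 0.41, and rose at least 11-fold there over cortex total RNA (5.07 ± 0.13, adjusted p = 6.9e-24). Among 8 tested other receptor tyrosine kinases, 2 passed upward and 1 downward in Pdgf, 3 and 1 in Pdgf Cre and 3 and 0 in Recruited cells against cortical Olig2 cells, with medians of -0.52, -0.12 and 0.94. In the Pdgf and Recruited comparisons 3 of 8 is near the shares of 32% and 27.5% over all genes, and in Pdgf Cre 4 of 8 stands beside 36.1%. Pdgfra, the receptor for PDGF-A, rose 5.01-fold, 3.51-fold and 4.05-fold in these 3 models. Of 5 tested adaptors, 0 passed upward and 2 downward in Pdgf, 0 and 2 in Pdgf Cre and 0 and 1 in Recruited cells, near the shares of 32%, 36.1% and 27.5% over all genes. Gab1, a docking protein of both receptor families, read 12.32 ± 0.10 in mature oligodendrocytes and 4.06 ± 0.01 in neurons.

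**Figure D5:**
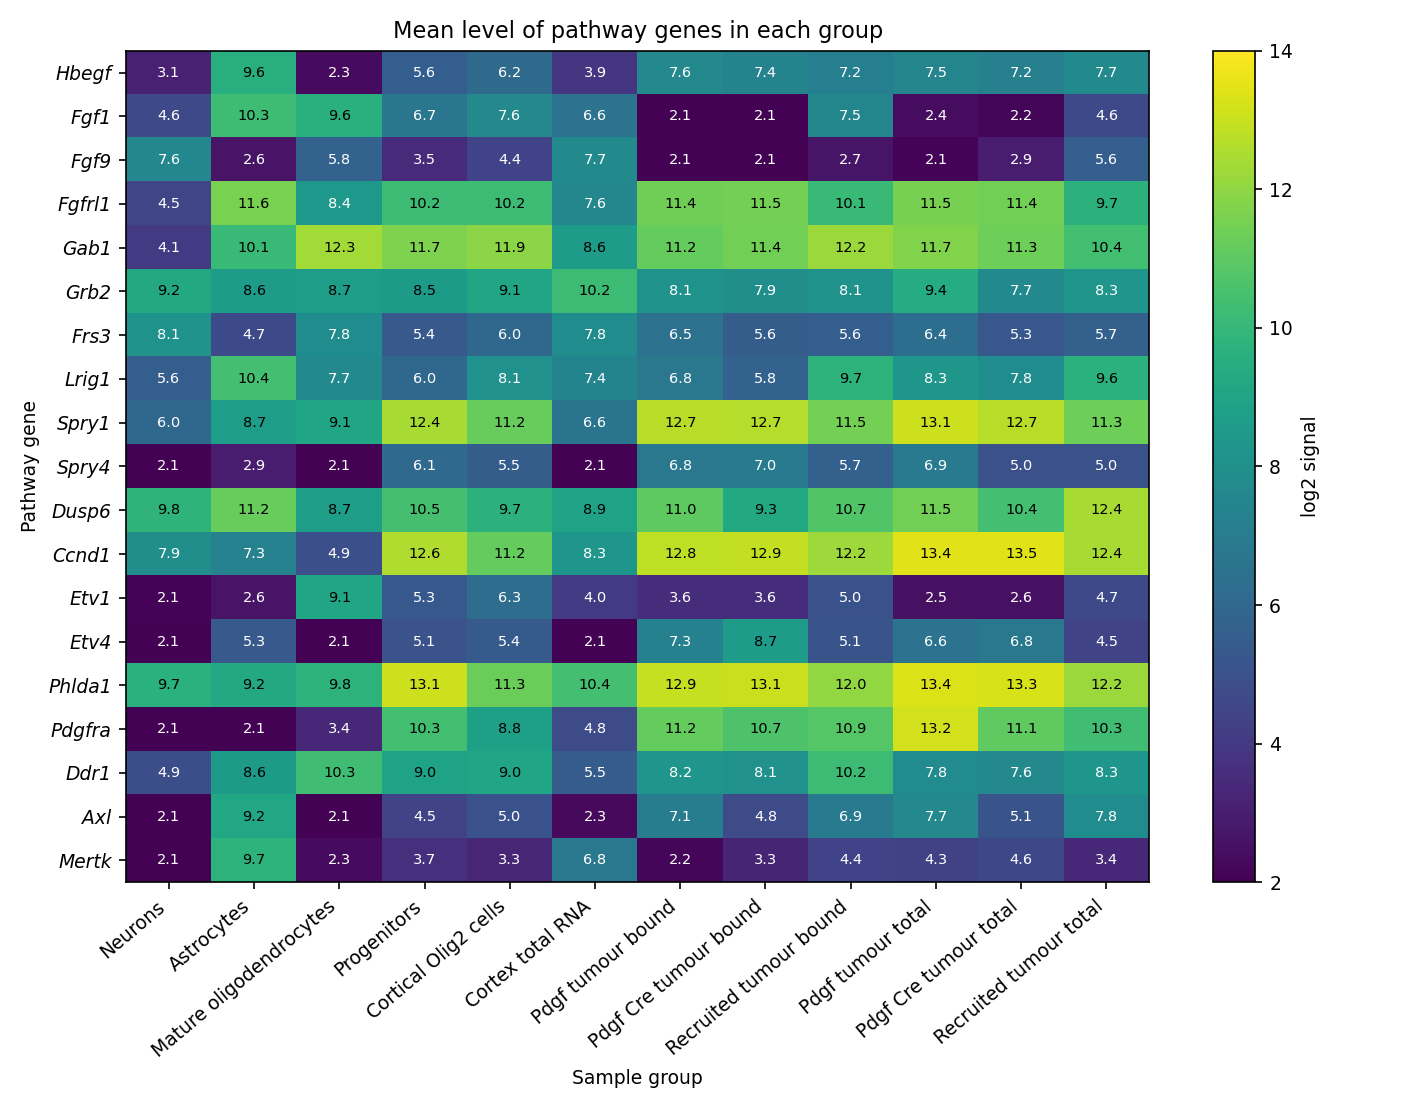
Mean log2 signal of 19 pathway genes (rows: ligands, an FGF receptor without kinase, adaptors, inhibitors, ERK targets and other receptor tyrosine kinases) in the 12 groups, shown by colour from 2 to 14 and printed in each cell. Fgf1 is at 2.08 in Pdgf and Pdgf Cre bound RNA and at 7.49 in Recruited bound RNA.

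The genes whose levels over the 12 group means were most like each tested receptor were ranked by Pearson's r, as a description, since many groups share the floor. They were Efhd1 (0.96), Fgf1 (0.95) and Gpr37 (0.95) for Fgfr2, Loxl1 (0.96), Gem (0.95) and 1700086O06Rik (0.92) for Fgfr1, and Pdzph1 (0.98), Prdm16os (0.97) and Cyp4f15 (0.97) for Fgfr3. Among the receptors themselves, r was 0.64 between Fgfr1 and Fgfr3, 0.52 between Fgfr2 and Fgfr3 and 0.11 between Fgfr1 and Fgfr2. Over the whole of the 21 comparisons, Fgfr2 passed in 16, all with at least 1 mean above the limit, rising in 7 and falling in 9. Fgfr1 passed in 9, of which 5 had both means dim, and Fgfr3 in 9, of which 7 had both means dim. The comparisons passed from 16.6% to 61% of all tested genes and share groups. These counts are therefore not read as particular to the receptors.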

How the data were processed

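The deposited values are log2 signals that the authors made with GCRMA, per the submitters' processing notes (no version given), from RNA labelled after a 2-cycle amplification, per the labels' protocols. The arrays of a group share 1 minimum that differs from other groups' minima, as they would if each group had been processed on its own, which no source states. The deposited log2 values were quantile normalized over the 38 arrays here. The 16395 probe sets included 64 controls and 687 that name no gene, and the other 15644 name 1 gene apiece. The filter kept the 9799 genes with 3 or more arrays over log2 50 and removed 5845. Testing used limma 3.58.1 in R 4.3.3, in 1 model of the 12 groups (26 residual degrees of freedom), with eBayes and Benjamini-Hochberg adjustment in each comparison, at 2-fold and 0.05. Arrays give no read depth, so their number limits the precision. p-values measure the spread between arrays, which may be technical.

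The receptors and the 14 gene lists (149 entries, 136 measured, 89 tested) were chosen with earlier results of these data known. Named genes were the receptors, up to 4 genes of each pathway list with the largest change among those that passed, the genes of the reporter lines, and the 3 genes most like each tested receptor. Same-numbered bound and total tumour arrays deviated together (r of 0.626, 0.618 and 0.473 in Pdgf, 0.621, 0.428 and 0.555 in Pdgf Cre, 0.466, 0.266 and 0.488 in Recruited), so the replicate block is a paired fit there. Cortex numbers did not pair arrays (r from -0.19 to 0.21). The model was tested on simulated data that held no tied values, with the filtered genes taken from the real arrays. That test therefore does not cover the filter or the tied values. Alternatives were the deposited values, spike-in scaling, no filter, a limit of log2 100, dim values raised to the limit, only the groups compared, an intensity trend, the replicate block and leaving out each array. RefSeq tables (GRCm38.p6) gave names for 15617 genes and the promoter windows.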

Additional observations from a re-analysis of the deposited data

Results flagged for a closer look

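In cortex total RNA 1 of 5 arrays lay apart for Fgfr2, and another for Erbb3 and Erbb4, with the gap to the next array divided by the range of the 5 above Dixon's 95% critical value of 0.71. For Fgfr2 the ratio was 0.831, from replicate 5 at 6.12 against 6.84 to 6.98 in the others. Without that array Fgfr2 differed from cortex total RNA by 4.09 in mature oligodendrocytes and 1.18 in cortical Olig2 cells, and both still passed. For Erbb3 the ratio was 0.917 and for Erbb4 1.00, both from replicate 1, at dim levels of 2.15 and 2.11. Chance gives such a gap in about 1 in 20 groups where values are free to vary. That does not hold for Erbb4, whose other 4 arrays were tied at the floor so that the ratio is 1.00 by construction, or for Erbb3, with 3 of 5 arrays at the floor.

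The bound over total ratio of Fgfr1 differed between tumours and cortical Olig2 cells by -1.27 on the log2 scale, by a test of the difference itself (limma, adjusted p = 8.51e-10). Of the 8 groups behind it, only Recruited total RNA had a mean above the dim limit.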

How the results depend on the processing

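Quantile normalization was the main scale because the deposited minima differ between groups. Of 945 receptor differences under an alternative, 894 kept their side of the threshold (4 of them, none called, changed sign), 32 kept their direction but lost the call, 12 gained one and 7 turned sign with a call. The cause of these changes was not tested, except that dim values raised to the limit cannot differ from each other. Arrays limit dim receptors: 75 of 84 group means lay under the limit.

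The number of receptors that passed moved as follows. Counts over all genes moved too, so these receptor counts are not read as particular to the receptors. In neurons 4774 of 9818 genes passed as deposited and 1711 of 9799 with dim values raised, against 2765 of 9799 in the main fit. The largest moves over all genes are given at the end. Fgfr3 left the test on the deposited values, with spike-in scaling and at the limit of log2 100, since it then had under 3 arrays above the limit, so a pass of Fgfr3 could not be kept in these fits. On the deposited values it became 1 in neurons, progenitors, Pdgf and Pdgf Cre bound against total, each tumour model against cortical Olig2 cells, tumours against progenitors, and Recruited against cortex total RNA. With spike-in scaling it became 0 in cortical Olig2 cells against cortex, 2 in mature oligodendrocytes, progenitors against mature oligodendrocytes, Pdgf and Recruited bound against total and the ratio comparison, and 1 in neurons, progenitors, Pdgf Cre bound against total, each model against cortical Olig2 cells, tumours against progenitors and Recruited against Pdgf Cre. With no filter, when the dim ErbB receptors are tested too, it became 5 in astrocytes against cortex and 4 in astrocytes against progenitors. At a limit of log2 100 it became 1 in neurons, progenitors, astrocytes against progenitors, Pdgf and Pdgf Cre against cortical Olig2 cells, and Pdgf Cre against cortex total RNA. With dim values raised it became 1 in those 6, in cortical Olig2 cells, Recruited against cortical Olig2 cells, tumours against progenitors, Recruited against Pdgf Cre, and Pdgf and Recruited against cortex total RNA, and 0 in the ratio comparison. Leaving out each array gave 1 to 2 in mature oligodendrocytes (2 without its replicate 3), 1 to 2 in Recruited bound against total, 1 to 3 in Recruited against cortical Olig2 cells and 1 to 2 in Recruited against Pdgf Cre (the changed value in each of the last 3 without Recruited bound replicate 2). In the other comparisons the count stayed within 1.5 times.

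Signs turned for Fgfr1 in Pdgf bound against total (-1.15 as deposited, -2.75 with spike-in scaling) and Pdgf Cre bound against total (-1.21 and -1.66), and, with spike-in scaling, for Fgfr2 in Pdgf (-1.72) and Recruited (-1.69) bound against total and Recruited against cortex total RNA (1.07). Fgfr2 in Recruited against cortical Olig2 cells also had an adjusted p of 0.115 with only the groups compared. With the replicate block that difference was -0.97 and the count of receptors went from 3 to 2, although the numbers do not pair cortex with tumour arrays. The block changed no other call of a receptor.

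Counts over all genes moved by over 1.5 times in some fits. With spike-in scaling they were 8594 against 3157 in Pdgf bound against total, 9429 against 4340 in Recruited bound against total, 8098 against 4947 and 8358 against 4916 in Pdgf and Recruited against cortex total RNA, and 6824 against 4295 for the ratio. On the deposited values neurons had 4774 against 2765. With dim values raised they were 1711 in neurons, 2099 in Pdgf bound against total, 1657 against 2694 in Recruited against cortical Olig2 cells, 922 against 1630 in Pdgf Cre against Pdgf and 1557 against 2524 in Recruited against Pdgf.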
